A study of Mus musculus with 9 samples.

Results

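The complement system was described here as 34 genes of the classical, lectin, alternative and terminal pathways, their regulators and their receptors. They were chosen by gene symbol from the 51912 genes listed in the liver RNA sequencing table, and all 34 were found. Of these, 31 passed a filter on low values and were tested among 11968 protein-coding genes. Cfd, C3ar1 and C5ar1 lay below the filter and are given by their values only.

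Livers came from 9 fasted mice, 5 given an antisense oligonucleotide (ASO) against Apoc3 (ApoCIII_ASO) and 4 given a control oligonucleotide (Control_ASO). Each oligonucleotide was injected intraperitoneally at 50 mg/kg/week for 8 weeks. All 9 mice were Apoe-/- Ndst1 f/f Alb-Cre+ on a C57Bl/6 background, so that both groups lacked apoE everywhere and, where the albumin promoter drives Cre in hepatocytes, the heparan sulfate sulfotransferase NDST1. No group with either gene intact was included, and the diet, age and sex of these mice are not named with the sequencing.

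Complement is a cascade of plasma proteins that the liver largely makes and secretes. C1q, or lectins that bind microbial sugars, start it through paired serine proteases that cleave C4 and C2, whereas factors B and D amplify it on C3b, and all routes meet at the cleavage of C3 and then of C5. C5b to C9 form the membrane attack complex, and soluble and membrane-bound regulators hold the cascade back on host cells. Hepatocytes make most of the proteases and of C3 to C9, whereas C1q, properdin and ficolin A come mainly from macrophages, which in liver are the Kupffer cells.

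The deposited values are TPM, a length-corrected share of each library, and they keep no sequencing depth, so that no counting error could be given. Nuclear protein-coding genes made up only 1.94% to 8.64% of TPM per liver, most of the rest being 7SL and mitochondrial RNA. Values are therefore given as rescaled TPM, for which the protein-coding genes of each liver were set to a total of 1000000 and divided by a scaling factor. Control_ASO replicate 4 stood apart, with the lowest protein-coding share, a factor of 0.496 against 0.930 to 1.44 in the other livers, and 63.0% of protein-coding TPM in major urinary protein genes against 14.03% to 44.1%. The Y-linked Ddx3y was at 34.8 to 53.7 in all livers and Xist at no more than 3.52. Apoc3, the target of the oligonucleotide, was at 379, 431, 334, 622 and 485 in the ApoCIII_ASO livers and at 3370, 3169, 3479 and 4291 in the Control_ASO livers. Its mean was 87.4% lower (log2 fold change -3.01, SE 0.23, limma, Benjamini-Hochberg adjusted p = 0.000388). Apoe was at 23.2 to 66.3 and Ndst1 at 4.80 to 11.6 over all livers, and which exons these values cover is not known.

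No complement gene was called different between the groups. A gene was called where its limma Benjamini-Hochberg adjusted p was under 0.05 with groups more than 1.5-fold apart, which 2 of the 11968 genes tested met (0.0167%), namely Apoc3 and Anpep, both lower. At those thresholds the paper, with a different test on read counts, reported more genes than this, both higher and lower. Among the 31 members tested, 0 had an unadjusted p under 0.05, against 667 of all genes tested (5.57%), and for 0 the groups failed to overlap, against 219 of all genes (1.83%). An exact permutation test per gene also gave 0 members at an unadjusted p under 0.05. The smallest unadjusted p of a member in limma was 0.0577, and adjusted p-values ran from 0.882 to 0.998. The log2 fold changes of ApoCIII_ASO over Control_ASO were positive for 14 members and negative for 17, with a median of -0.11 against -0.0013 over all genes tested. The 95% interval lay within a 2-fold change either way for 24 of the 31 members, but within a 1.5-fold change for only 3, since the SE had a median of 0.26 on the log2 scale. For the other 28 the interval reached past 1.5-fold in at least 1 direction, so a change of that size remained possible in the data. Without the scaling factors, 29 of the 31 members were higher and 2 lower, and the median of all genes tested then stood at 0.41; relative to that median 14 were above and 17 below, as before.

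**Figure D1:**
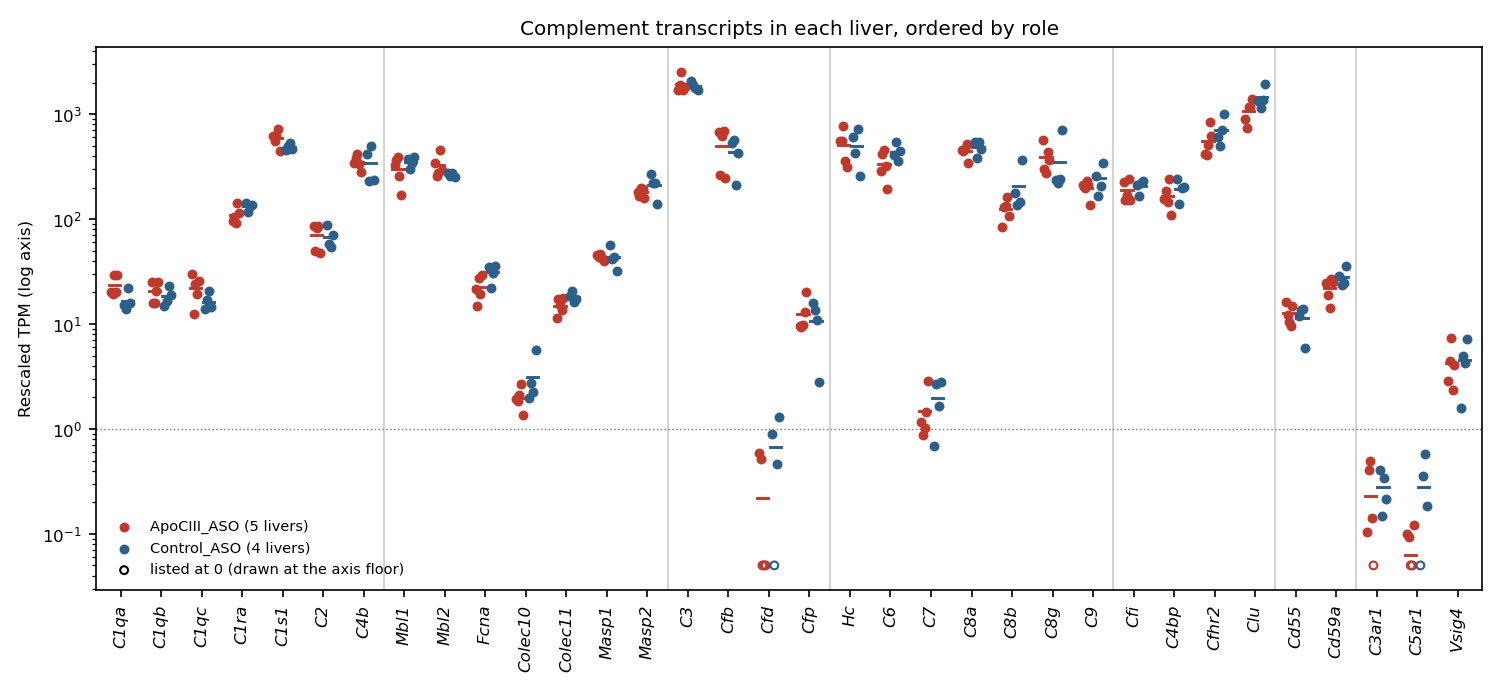
Rescaled TPM on a log axis for each of the 34 complement genes, ordered by role from the classical pathway to the receptors, with 1 point per liver and a bar at each group mean; open points at the bottom are livers listed at 0, and the dotted line marks the filter at 1. C3 and Clu stood highest and Cfd, C3ar1 and C5ar1 lowest, and the points of both groups overlapped for every gene tested.

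**Figure D2:**
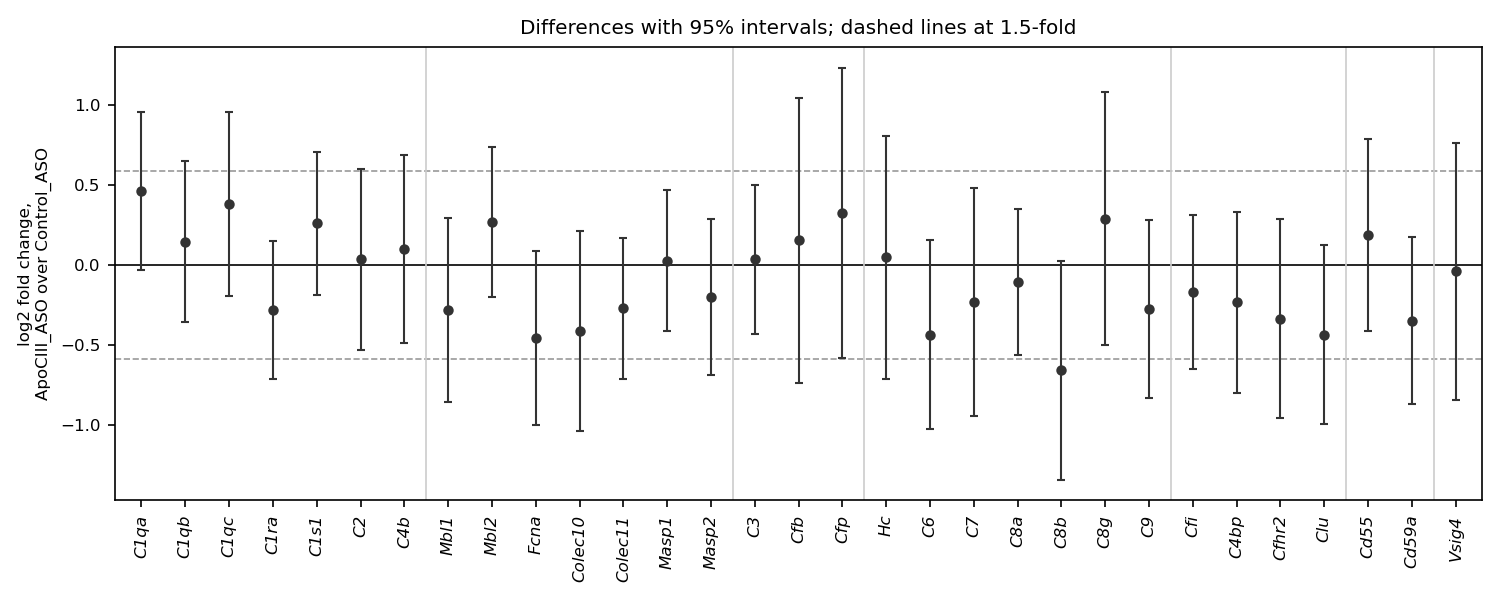
The log2 fold change of ApoCIII_ASO over Control_ASO with its 95% interval for the 31 complement genes tested, in the same order, with dashed lines at a 1.5-fold change. Every interval crossed 0, from C8b at -0.66 to C1qa at 0.46.

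Levels spanned more than the groups did. C3, on which all pathways converge, lies at chr17:57203970-57228136 and was the most abundant member and ranked 50 by mean among protein-coding genes. It was at 1688, 1913, 2540, 1714 and 1801 in the ApoCIII_ASO livers and at 2086, 1892, 1785 and 1716 in the Control_ASO livers. C3 was also the steadiest member, its highest liver being 1.505 times its lowest, and its log2 fold change was 0.034 (95% interval -0.43 to 0.50). Members varied less than most genes tested, although these were not matched to the members in level. The median within-group SD was 0.38 on the log2 scale against 0.44 over all genes tested. Of the 31 members, 7 lay above the median of all genes. Those 7 were Cfb, Cfp, Hc, C7, C8b, C8g and Vsig4.

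The 8 members whose transcripts share sequence with another gene need to be known before their values are read. By default kallisto assigns a read by the 31-base words it holds, and reads that fit several transcripts are divided among them by estimation. At least 9.28% of the words of C1ra, C1s1, C2, C4b, Cfb, Cfhr2, Cd55 and Cd59a also occurred in another gene, whereas the other 26 members shared under 1%. Cfb shared 75.5% and C2 40.2% with Gm20547, an annotated read-through of C2 into Cfb on the same strand. C1ra shared 56.9% with C1rb, C4b 48.3% with C4a, C1s1 33.5% with C1s2, and Cfhr2 24.5% with Gm16332. Cd55 shared 11.2% with Cd55b and Cd59a 8.23% with Cd59b.

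The likeness of 3 such pairs is shown by a matching window of 120 bases, chosen for an identity near that of the whole pair. Sequences are from the GENCODE M21 transcripts on GRCm38, in the direction of transcription, and capitals mark the bases that differ within a pair. The C1r pair was 98.02% identical over 2118 aligned coding bases, and the windows lie in exon 7 on the plus strand, at chr6:124517693-124517812 for C1ra and chr6:124575238-124575357 for C1rb, with 2 differences.
C1ra: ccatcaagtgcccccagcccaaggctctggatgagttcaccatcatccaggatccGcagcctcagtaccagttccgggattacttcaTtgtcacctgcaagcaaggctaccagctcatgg
C1rb: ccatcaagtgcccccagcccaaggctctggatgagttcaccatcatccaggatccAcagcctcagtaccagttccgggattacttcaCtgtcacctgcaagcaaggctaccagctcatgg
The C1s pair was 96.0% identical over 2078 bases, and the windows lie on the minus strand in coding sequence, in exon 7 of C1s1 at chr6:124535267-124535386 and in exon 6 of C1s2 at chr6:124630033-124630152, with 5 differences.
C1s1: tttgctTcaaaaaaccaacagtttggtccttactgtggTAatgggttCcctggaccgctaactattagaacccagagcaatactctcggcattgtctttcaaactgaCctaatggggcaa
C1s2: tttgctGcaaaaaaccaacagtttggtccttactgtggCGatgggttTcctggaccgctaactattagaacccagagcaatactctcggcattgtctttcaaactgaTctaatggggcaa
The C4 pair was 96.1% identical over 5204 bases, and the windows lie in exon 12 on the minus strand, at chr17:34740002-34740121 for C4b and chr17:34819525-34819644 for C4a, also with 5 differences. The C4a transcripts carry no annotated coding sequence in this release.
C4b: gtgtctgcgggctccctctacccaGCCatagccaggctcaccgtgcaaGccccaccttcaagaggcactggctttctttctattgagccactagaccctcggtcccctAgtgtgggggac
C4a: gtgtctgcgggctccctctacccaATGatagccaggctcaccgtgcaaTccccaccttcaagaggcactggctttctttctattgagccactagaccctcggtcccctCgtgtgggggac

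The classical pathway held 7 members, of which 6 had a higher mean log2 value in the ApoCIII_ASO livers and 1 a lower, none passing the test. C1q is built from equal numbers of 3 chains, encoded by neighboring genes on chromosome 4. C1qa, at chr4:136895917-136898803, was at 20.2, 19.1, 29.2, 20.03 and 29.0 in the ApoCIII_ASO livers and at 15.2, 13.9, 22.0 and 15.8 in the Control_ASO livers. All but 1 control liver lay below the lowest ApoCIII_ASO liver. The log2 fold change of C1qa was 0.46 (SE 0.23, 95% interval -0.031 to 0.96), and the limma adjusted p was 0.883. C1qb was at 25.2, 15.7, 15.9, 20.7 and 25.4 against 14.9, 16.6, 22.9 and 19.1, and its groups overlapped throughout (log2 fold change 0.14, SE 0.23). C1qc was at 29.9, 12.4, 23.9, 19.3 and 25.6 against 13.9, 16.8, 20.4 and 14.4, with the lowest value of all in an ApoCIII_ASO liver (log2 fold change 0.38, SE 0.26). The 3 chains stood at about the same level within a liver: C1qa was 0.803 to 1.83 times C1qb, and C1qc 0.754 to 1.495 times C1qb.

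The C1 proteases and C4b, which hepatocytes make, stood far higher than the C1q chains. C1s1, which cleaves C4 and C2, was the most abundant classical member, at 624, 558, 620, 718 and 441 in the ApoCIII_ASO livers and at 458, 497, 536 and 464 in the Control_ASO livers. Its lowest value was in an ApoCIII_ASO liver, so that the groups overlapped (log2 fold change 0.26, SE 0.20, limma adjusted p = 0.914). C1ra, which activates C1s, had a mean of 110 ± 20.4 (SD, n = 5) against 133 ± 11.3 (SD, n = 4), with a log2 fold change of -0.28 (SE 0.20). C1s1 was 3.18 to 6.79 times C1ra, although the C1 complex holds equal numbers of both proteases. C4b, the gene of complement C4, was at 352 ± 51.5 against 345 ± 131, and C2, its partner in the C3 convertase, at 70.5 ± 19.7 against 67.7 ± 15.0.

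The partner copies of these genes differed more between livers than the members did. C4a is the gene of a C4-like plasma protein known as sex-limited protein, named for its higher level in males of some strains. Its transcripts carry no annotated coding sequence in the release used, so its values are not read as levels of a protein. Placed on the same scale, C4a was at 37.9, 44.7, 124, 104 and 153 in the ApoCIII_ASO livers and at 282, 170, 242 and 204 in the Control_ASO livers, and the groups did not overlap. When C4a was added to the genes tested, its log2 fold change was -1.44 (SE 0.40), with an unadjusted p of 0.0040 and a limma adjusted p of 0.762, so that it was not called. C4a took 9.95% to 35.2% of the sum of C4a and C4b in the ApoCIII_ASO livers and 32.9% to 46.1% in the Control_ASO livers. The groups overlapped for C4b itself, and the sum had a mean of 444 ± 60.5 against 569 ± 172, with a log2 fold change of -0.31 (SE 0.24) where that of C4b alone was 0.097 (SE 0.27).

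C1s2 was at 0.324, 0, 0.188, 0 and 29.0 in the ApoCIII_ASO livers and at 33.2, 10.6, 15.1 and 36.3 in the Control_ASO livers. ApoCIII_ASO replicate 5 thus lay among the controls while the other 4 were at or near 0. With all 9 livers the log2 fold change was -3.35 (SE 0.90, limma adjusted p = 0.762), and an exact two-sided permutation test gave p = 0.111. Without ApoCIII_ASO replicate 5 the log2 fold change was -4.30 relative to the median of all genes, with a limma adjusted p of 0.00186. That p depends on leaving out the only ApoCIII_ASO liver that went against the difference. C1rb was at 0.404, 0.342, 114, 0.250 and 12.2 against 18.0, 6.44, 8.39 and 92.7, so that 1 liver of each group was far above the rest (log2 fold change -1.87, SE 1.28). C1s2 made up no more than 7.25% of the C1s sum in any liver, and the sum of C1s1 and C1s2, at 598 ± 91.6 against 513 ± 26.8, had a log2 fold change of 0.21 (SE 0.20). How far these values reflect reads divided between near-identical copies was not tested, as the reads were not used here.

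**Figure D3:**
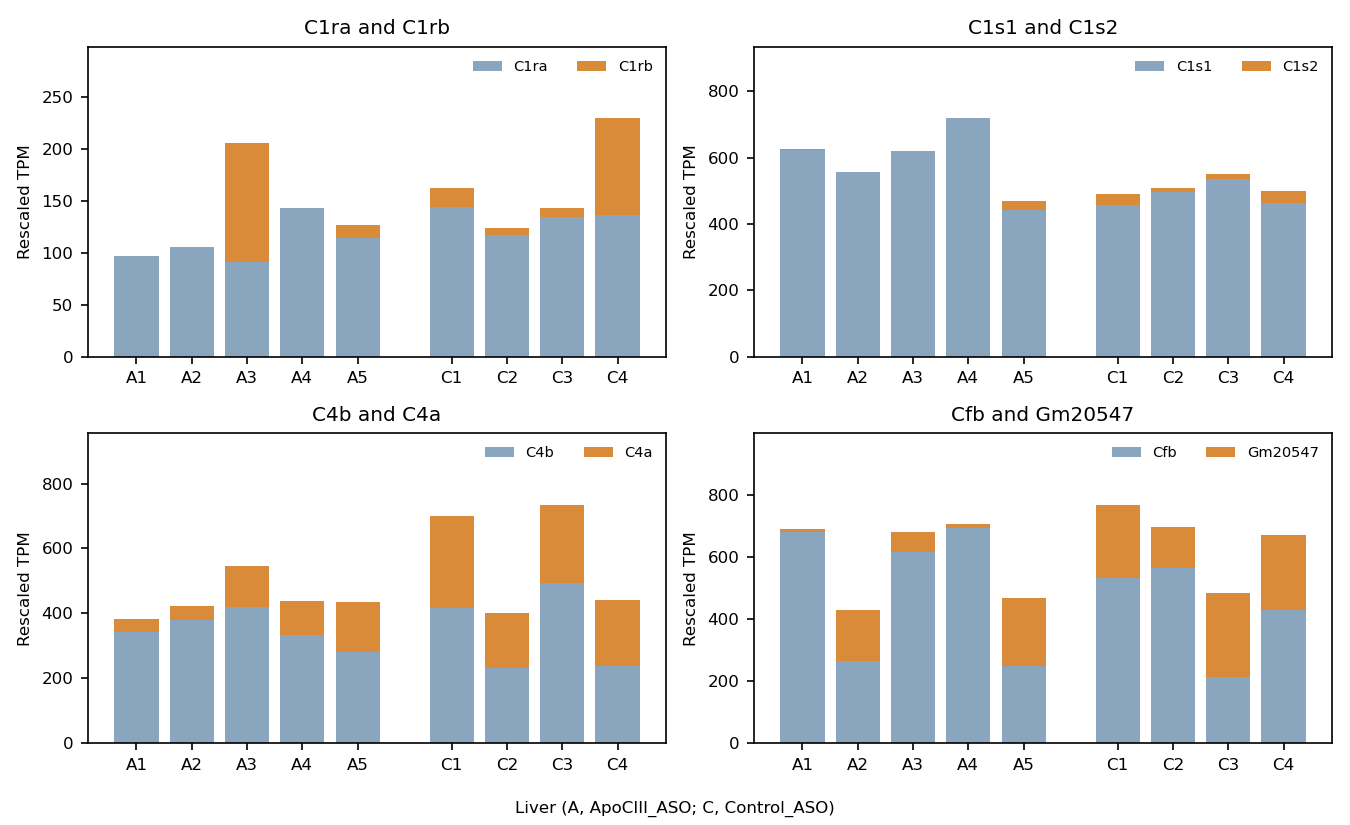
Rescaled TPM per liver as stacked bars for 4 members (blue) and the partner that shares their sequence (orange): C1ra with C1rb, C1s1 with C1s2, C4b with C4a, and Cfb with Gm20547; bars marked A are ApoCIII_ASO livers and bars marked C Control_ASO livers. C4a stood at 37.9 to 153 in the ApoCIII_ASO livers and 170 to 282 in the controls. The 3 livers with the lowest Cfb had Gm20547 at 165 to 269, but Control_ASO replicates 1 and 4, with Cfb at 531 and 429, had it at 236 and 242.

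In the lectin pathway, 2 of 7 members had a positive and 5 a negative log2 fold change, none passing the test. Mbl1 and Mbl2 encode the mannose-binding lectins. Mbl1 had the highest mean of this pathway over all 9 livers, although it exceeded Mbl2 in only 6 of them, and was at 325, 363, 389, 257 and 169 in the ApoCIII_ASO livers and at 376, 299, 345 and 391 in the Control_ASO livers. The lowest value was in ApoCIII_ASO replicate 5 and the groups overlapped (log2 fold change -0.28, SE 0.26). Mbl2 was at 326 ± 81.2 against 265 ± 12.8, the opposite direction (log2 fold change 0.27, SE 0.21). Fcna, the ficolin of Kupffer cells, was at 21.6, 15.0, 27.7, 19.2 and 29.5 against 35.3, 22.2, 30.7 and 35.9. A single control liver lay within the ApoCIII_ASO range, and the log2 fold change was -0.46 (SE 0.25, 95% interval -1.002 to 0.087, limma adjusted p = 0.899).

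The collectins Colec11 and Colec10, which form mixed complexes, were at 15.0 ± 2.55 against 18.1 ± 1.82 and at 1.98 ± 0.476 against 3.13 ± 1.68. Colec11 was 3.09 to 13.0 times Colec10, and the highest Colec10 value, 5.600, was in Control_ASO replicate 4. Masp2, the protease that cleaves C4 and C2 for the lectins, was at 180 ± 17.4 against 212 ± 54.1. Masp1, which activates it, was at 43.5 ± 2.42 against 43.5 ± 10.1, a log2 fold change of 0.026 (95% interval -0.42 to 0.47). Masp2 was 3.82 to 5.24 times Masp1. The Masp1 gene also encodes a longer protease and a shorter regulator by alternative splicing, which a value per gene cannot separate. Nor does the value of Masp2 separate the transcripts of that gene.

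Of the alternative pathway, the 3 members tested all had a positive log2 fold change, C3 at 0.034, Cfb at 0.15 and Cfp at 0.32, none passing the test. These signs were not stable: without Control_ASO replicate 4, relative to the median of all genes, C3 was at -0.0040 and Cfp at -0.15, and without Control_ASO replicate 3 Cfb was at -0.16. Cfb, which supplies the protease of the alternative C3 convertase, was at 680.5, 264, 615, 692 and 247 in the ApoCIII_ASO livers and at 531, 563, 213 and 429 in the Control_ASO livers. Its values fell into high and low livers in both groups, with a 3.25-fold range. Gm20547, named here after its values were seen, was at 9.21, 165, 65.4, 15.8 and 220 against 236, 132, 269 and 242 (log2 fold change -2.01, SE 0.81, unadjusted p = 0.029, limma adjusted p = 0.876). The 3 livers with the lowest Cfb values each had Gm20547 at 165 or above. So did Control_ASO replicates 1 and 4, at 236 and 242, although their Cfb was at 531 and 429. The sum of both genes spanned 1.79-fold, from 429 to 768, with a log2 fold change of -0.15 (SE 0.24), so that the sign seen for Cfb alone turned. Cfp, encoding properdin, which stabilizes that convertase, was at 12.4 ± 4.68 against 10.8 ± 5.64, with its lowest value, 2.81, in Control_ASO replicate 4. Cfd, the adipocyte-made protease that activates factor B, was at 0 in 3 ApoCIII_ASO livers and 1 Control_ASO liver and at no more than 1.31 in any. The adipocyte markers Adipoq and Lep were listed at 0 in all livers.

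The terminal pathway had 2 members with a positive and 5 with a negative log2 fold change, none passing the test. Hc, the mouse gene for C5, was the most abundant, at 555, 554, 763, 361 and 312 in the ApoCIII_ASO livers and at 608, 427, 716 and 259 in the Control_ASO livers. It ranged as widely within as between groups (log2 fold change 0.046, SE 0.35). C6, which joins C5b, was at 335 ± 106 against 439 ± 75.3, with a log2 fold change of -0.44 (SE 0.27, limma adjusted p = 0.900). C7, which follows C6 in the complex, was at only 1.48 ± 0.804 against 1.95 ± 0.981, so that C6 was 67.8 to 598 times C7 in rescaled TPM. C9, which forms the pore, was at 197 ± 36.5 against 244 ± 75.9.

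C8 consists of an alpha, a beta and a gamma chain, from C8a and C8b on chromosome 4 and C8g, a lipocalin, on chromosome 2. C8a was at 460, 441, 468, 522 and 346 in the ApoCIII_ASO livers and at 547, 382, 538 and 462 in the Control_ASO livers, with groups that overlapped fully (log2 fold change -0.11, SE 0.21). C8b, at chr4:104766317-104804548, was at 83.3, 130, 132, 164 and 108 against 178, 137, 146 and 369. With all livers it had the largest difference of any member, with a log2 fold change of -0.66 (SE 0.31, 95% interval -1.34 to 0.025, limma adjusted p = 0.882). Without Control_ASO replicate 4, its highest liver, the log2 fold change of C8b was -0.34 relative to the median of all genes, with an unadjusted p of 0.191. The 2 lowest control livers lay within the ApoCIII_ASO range. C8g, at chr2:25498651-25501719, was at 572, 300, 275, 431 and 366 against 238, 221, 239 and 705. All ApoCIII_ASO livers were above 3 of the 4 controls, but Control_ASO replicate 4 was the highest liver of all (log2 fold change 0.29, SE 0.36). Without that liver the log2 fold change of C8g was 0.69 relative to the median of all genes, with an unadjusted p of 0.0230 and a limma adjusted p of 0.856.

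Within each liver C8b was the scarcest of the 3 chains, with C8a 1.25 to 5.52 times and C8g 1.34 to 6.87 times its level. The ratio of C8g to C8b was 2.08 to 6.87 in the ApoCIII_ASO livers and 1.34 to 1.91 in the Control_ASO livers, without overlap. Of 15 such ratios compared with an exact two-sided permutation test, this had the smallest p, 0.0159, which is the smallest that 5 against 4 livers allow. Its Benjamini-Hochberg adjusted p over the 15 was 0.238, and it was singled out after its values were seen. The ratios of C1s1 to C1ra and of Masp2 to Masp1 each had an exact permutation p of 0.0476 and the same adjusted p. The ratio of C1s1 to C1ra leaves out the partner copies C1s2 and C1rb. It was highest, at 6.79, in ApoCIII_ASO replicate 3, where C1rb made up 55.6% of the sum of C1ra and C1rb. How this ratio depends on reads divided between the copies was not tested. For the 3 ratios of C1q chains the exact permutation p-values were 0.206, 0.254 and 0.762.

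**Figure D4:**
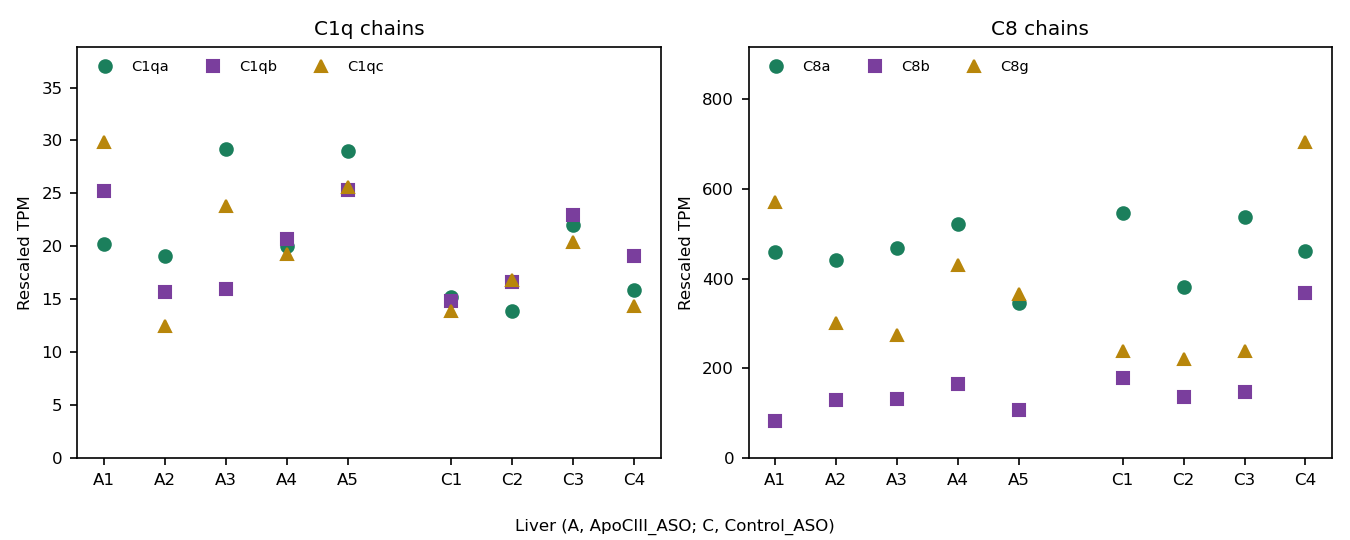
Rescaled TPM of the 3 C1q chains (left) and the 3 C8 chains (right) in each liver, on axes that start at 0; A marks ApoCIII_ASO livers and C Control_ASO livers. The C1q chains lay together between 12.4 and 29.9, whereas C8b lay below C8a and C8g in every liver and C8g of Control_ASO replicate 4 reached 705.

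The 4 soluble regulators all had a negative log2 fold change, from -0.44 to -0.17, none passing the test. Clu encodes clusterin, which keeps C5b-7 and later complexes off membranes, and was the most abundant regulator. It was at 896, 731, 1179, 1162 and 1399 in the ApoCIII_ASO livers and at 1332, 1150, 1359 and 1929 in the Control_ASO livers. The ApoCIII_ASO range reached into that of the controls (log2 fold change -0.44, SE 0.26, 95% interval -0.99 to 0.12, limma adjusted p = 0.900). Cfhr2 was at 560 ± 179 against 705 ± 220, with a log2 fold change of -0.34 (SE 0.28). Without Control_ASO replicate 4, the highest liver for both, Clu was at -0.28 and Cfhr2 at -0.15 relative to the median of all genes. Cfi, the protease that inactivates C3b and C4b, was at 187 ± 41.7 against 208 ± 29.4, and C4bp, its cofactor for C4b, at 167 ± 48.2 against 194 ± 42.0.

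The membrane regulators and receptors were low in whole liver. Cd59a, which blocks the last step of the attack complex, was at 24.5, 18.9, 14.3, 27.1 and 25.1 in the ApoCIII_ASO livers and at 28.4, 23.4, 24.5 and 35.6 in the Control_ASO livers, with overlapping groups (log2 fold change -0.35, SE 0.24). Cd55, which speeds the decay of C3 convertases, was at 12.6 ± 2.81 against 11.3 ± 3.65. Vsig4, the C3b receptor of Kupffer cells, was at 2.86, 4.43, 7.36, 2.34 and 4.09 against 1.59, 4.99, 4.26 and 7.22, and the groups overlapped throughout (log2 fold change -0.040, SE 0.37). The anaphylatoxin receptors C3ar1 and C5ar1 reached no more than 0.499 and 0.576 in any liver.

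By expected origin, the 20 hepatocyte members summed to 7338 to 9613 rescaled TPM in the ApoCIII_ASO livers and 8003 to 9823 in the Control_ASO livers. Of these, 9 had a positive and 11 a negative log2 fold change, with a median of -0.14. The 8 macrophage members summed to 76.6 to 134 against 88.5 to 112, and of the 6 tested 4 were positive and 2 negative, with a median of 0.23. In these whole-liver libraries, fewer cells of a type cannot be told apart from less RNA per cell. The 10 Kupffer cell markers, from Clec4f to Cd163, summed to 282 to 513 in the ApoCIII_ASO livers and 198 to 421 in the Control_ASO livers. Of the 9 tested, 5 were positive and 4 negative, with a median of 0.056, and the iron exporter Slc40a1, which hepatocytes also express, carried most of the sum (log2 fold change 0.75, SE 0.31, unadjusted p = 0.033, limma adjusted p = 0.876). The defining markers Clec4f and Cd5l were at 16.4 to 50.2 and at 26.5 to 40.4 over all livers, with log2 fold changes of -0.18 (SE 0.35) and 0.14 (SE 0.20). The part of macrophage number in the C1q and Fcna values was not tested. The monocyte and neutrophil list had 2 positive and 3 negative values, led by Lyz2 at 14.9 to 33.8, Plac8 at 8.16 to 35.2 and Ly6c2 at 0.105 to 4.82, with S100a8 at 0 in all livers.

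The other cell type lists held no called gene. Of 10 hepatocyte markers 2 were positive and 8 negative, with a list median of -0.28. Alb, the albumin gene, was at 15301 to 39704, Apoa1 at 3762 to 6549 and Cyp3a11 at 1661 to 3931, so that hepatocyte transcripts were abundant in every liver. The list of 8 stellate cell markers includes Colec10, at -0.41, which is also counted above as a lectin member. Of these 8 markers 2 were positive and 6 negative, with Dcn at a log2 fold change of -0.57 (SE 0.24, unadjusted p = 0.039), and Reln and Col3a1 at -0.14 and 0.11. Lrat, which stores retinol, at 0.977 to 1.63 against 2.29 to 5.29, had the largest of these, -0.89 (SE 0.26, without overlap of the groups, unadjusted p = 0.0051, limma adjusted p = 0.842). Of 6 sinusoidal endothelial markers 5 were positive and 1 negative, with Stab2 at 0.074, Fcgr2b at 0.23 and Clec4g at 0.50. Many complement genes are raised in the acute phase, and of 12 acute phase genes 8 were positive and 4 negative, with a median of 0.13. The most abundant, Hp, Fga and Hpx, had log2 fold changes of 0.21, 0.0085 and -0.16. The list ran from -0.62 for Serpina3n to 0.89 for Saa2, with Saa1 at 0.51. Saa3, a serum amyloid A like Saa1 and Saa2, had a log2 fold change of 0.86 (SE 0.33, unadjusted p = 0.024, limma adjusted p = 0.873), and no list gene was called.

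Among 29 further complement genes, from C1rb to Susd4, 28 were in the table and 21 were tested. Of these, 4 were positive and 17 negative, with a median of -0.18, 0 were called, and C1s2 alone had an unadjusted p under 0.05. Vtn, encoding vitronectin, which binds C5b-7, was the most abundant at 1734 ± 234 against 1620 ± 402. Serping1, encoding the C1 inhibitor, was at 359 ± 73.4 against 386 ± 64.0, and Crp, which binds C1q, at 404 ± 88.6 against 563 ± 251, a log2 fold change of -0.40 (SE 0.30). Itgam, a chain of complement receptor 3, had a log2 fold change of -0.46 (SE 0.35) and a mean close to the filter. Fcnb was listed at 0 in all livers.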

How the data were processed

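Liver RNA from 5 ApoCIII_ASO and 4 Control_ASO mice was compared. The values the authors deposited are TPM for each gene. Notes from the submitters name kallisto 0.43.1 and GRCm38. The methods of the paper name STAR, featureCounts and DESeq2 for a test on read counts, and such counts were not used here. TPM keeps no depth, so counting error is unknown. Genes were matched by identifier to GENCODE M21. Nuclear protein-coding TPM was rescaled to 1000000 per liver and divided by median-of-ratios factors, since noncoding RNA took most of the deposited TPM. Genes with a mean of at least 1 over the 9 livers were tested with limma 3.58.1 in R 4.3.3 (lmFit, eBayes with trend) on log2(value + 1), without covariates, so that a log2 fold change is on that scale and understates changes of low genes. A call required groups more than 1.5-fold apart with an adjusted p (Benjamini-Hochberg) under 0.05, the thresholds of the paper. The test was tried on simulated data. Each library has its own group and replicate number in the labels and was taken as a separate mouse, and every value column was assigned to its liver.

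The members and gene lists were chosen with earlier results of these data known. All members are named by role. Values per liver are given for members with an unadjusted p under 0.05, the 3 largest changes, the most abundant of each role, and the C1q and C8 chains. Of the further complement genes, the 4 smallest p-values and the 3 highest means are named, 1 gene not being reported here, and of each marker list genes from the 3 highest means or with an unadjusted p under 0.05. Colec10, Saa1, Saa2 and Serpina3n are named in those lists besides. C4a, Gm20547 and Cfb were given per liver after their values were seen. Words of 31 bases shared between genes were counted over GENCODE M21 transcripts. The pairs were aligned with Biopython, and each window was the earliest 120 bases without a gap in 1 coding exon with an identity nearest to that of the pair. Ratios were compared on the log2 scale with exact permutation tests (scipy 1.17.1), with Python 3.11.15, numpy 2.4.6, pandas 2.3.3 and matplotlib 3.10.9.

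The alternatives tried were TPM as deposited, median-of-ratios scaling of all genes, rescaling without factors, a pseudocount of 0.1, no filter, a mean of at least 5, array weights, calls without a fold threshold, calls at an adjusted p under 0.1, exact permutation per gene, a replicate block, and each liver left out in turn. Summing members with their partners (C1ra with C1rb, C1s1 with C1s2, C4b with C4a, and Cfb with Gm20547), and adding listed genes of other biotypes, were chosen after seeing the data.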

Additional observations from a re-analysis of the deposited data

Results flagged for a closer look

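In each group of livers, the highest and the lowest value were set against Dixon's 95% limit for the 31 members tested and for C1rb, C1s2, C4a, Gm20547 and Apoc3. This gave 6 flags in 72 groups, and chance alone flags about 1 group in 20. C3 was at 2540 in ApoCIII_ASO replicate 3, above 1688 to 1913 in the other livers of its group. C7 was at 2.87 in ApoCIII_ASO replicate 5, above 0.872 to 1.44. C8g was at 705 in Control_ASO replicate 4, above 221 to 239 in the other controls. C1rb was at 114 in ApoCIII_ASO replicate 3, above 0.250 to 12.2, and at 92.7 in Control_ASO replicate 4, above 6.44 to 18.0. C1s2 was at 29.0 in ApoCIII_ASO replicate 5, against 0 to 0.324 in the others.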

How the results depend on the processing

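No member was called under any alternative run, the exact permutation test being unable to call any gene. Relative to the median of all genes tested, 20 of the 31 members kept their sign under every alternative, and of 540 member values 32 changed sign. The members' median was -0.10 and lay between -0.17 and 0.0081, the highest on TPM as deposited, where 25 members and 4936 genes passed the filter, and 18 members were higher and 7 lower before that median, 0.11, was subtracted. The cause of these changes was not tested.

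Under the replicate block, 3 members (Fcna, C8b, Clu) had an unadjusted p under 0.05, and 5 (C1qa, C1qc, C1s1, Mbl2, C8g) did so without factors. Over all genes tested, 933 of 11968 did so under the block and 1328 of 12051 without factors. Those p-values without factors are against 0, whereas the median of all genes then stood at 0.41. With each liver left out the count of members was 0 to 2: C1qc without ApoCIII_ASO replicate 2, C8b without replicate 4, Fcna and C8b without Control_ASO replicate 2, C1qa and C8b without replicate 3, and C8g without replicate 4. Over all genes tested, the count in those fits was 500 to 843. Deviations of same-numbered livers correlated at 0.067, 0.12, 0.028 and 0.19, and 1 of 4 pairs correlated best with its own number. So few pairs cannot settle whether the numbers mark a pairing, which the labels do not state. ApoCIII_ASO replicate 5 has no partner. C1s2 passed under the block (-4.30, limma adjusted p = 0.0189), which is not a check separate from the fit without ApoCIII_ASO replicate 5. That liver has no partner, so the block leaves it out of the group difference. Genes called numbered 11 on TPM as deposited, 1 with no filter and without factors, 0 with the exact permutation test (623 at an unadjusted p under 0.05), and 1 to 3 with a liver left out. Apoc3 was at -2.73 on TPM as deposited and at -3.01 with the permutation test (p = 0.0159, adjusted p = 0.867), no longer called. With 0.0159 the smallest p that 5 against 4 livers allow, no gene could pass the adjusted threshold in that test, so its 0 calls carry no information.

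On TPM as deposited the sign turned for Masp1 (-0.019), C8a (0.085), Cfi (0.0081) and Serping1 (0.057). With array weights it turned for C4b (-0.041), Masp1 (-0.058), Cfp (-0.068), Hc (-0.10), Vsig4 (0.21) and Vtn (-0.025), and with partners summed for C4b (-0.31) and Cfb (-0.15). With a liver left out the ranges were -0.060 to 0.17 for C2, -0.073 to 0.30 for C4b, -0.10 to 0.16 for Masp1, -0.068 to 0.091 for C3, -0.16 to 0.37 for Cfb, -0.15 to 0.56 for Cfp, -0.24 to 0.25 for Hc, -0.068 to 0.29 for Cd55, -0.36 to 0.19 for Vsig4 and -0.053 to 0.25 for Vtn.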
